A study of Bos taurus with 13 samples.

Results

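The 4 miRNAs described here are bta-miR-16a, bta-miR-16b, bta-miR-15a and bta-miR-15b, taken by name from the miRNA lists of extracellular vesicle (EV) RNA of bovine follicular fluid. They are 4 of the 311 miRNAs listed for at least 1 group of animals and of the 262 listed for every group. All 4 were listed for all 5 groups, no opposite arm of the 4 precursors was listed, and all 4 passed the filter on low values in every comparison.

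miRNAs are short RNAs that guide the Argonaute protein to messenger RNAs and lower their stability and translation, chiefly through the bases at the 5′ end that are called the seed. miR-15 and miR-16 share a seed and are known for repressing cyclins and the survival factor BCL2, and miR-16 is abundant in blood cells and often serves as a reference in measurements of miRNAs in body fluids. Each miR-16 is made from a transcript that also holds a miR-15. In the RefSeq gene table, MIR16B lies next to MIR15B within SMC4, the gene of a condensin subunit, and MIR16A lies next to MIR15A within the transcribed pseudogene LOC100847818, with KCNRG as the next gene.

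EV-coupled small RNA was sequenced from 13 pools of follicular fluid of Holstein Friesian animals, 1 library per pool. Transient cows (TCs) were in negative energy status at weeks 5 to 6 after calving (3 pools, 11 cows) and in positive status at weeks 9 to 10 (3 pools, 7 cows). Always negative cows (ANCs; 2 pools, 2 cows) and always positive cows (APCs; 2 pools, 2 cows) were both sampled at weeks 5 to 6, and heifers, which had not calved and were in positive status, gave 3 pools from 8 animals. How the animals of a group were divided among its pools is not stated, so p-values measure the spread between pools. Some cows may have given fluid at both TC times, which is not stated either, and all tests treat the pools as separate. The libraries held 145030 to 421435 miRNA reads (median 327359), and 3 reads corresponded to 7.91 to 19.0 CPM. In pools of EV RNA, fewer vesicles from a cell type and less of a miRNA per vesicle cannot be told apart.

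bta-miR-16b was among the most abundant miRNAs of these vesicles, and its mean in the 3 cow groups of weeks 5 to 6 was 0.506 to 0.574 times that of heifers. Levels are given as read counts scaled to library size (CPM), on 1 scale set by TMM over the miRNAs listed for all groups. In TCs at weeks 5 to 6, bta-miR-16b stood at 32008, 39418 and 30621 CPM, in ANCs at 36170 and 28816 CPM, and in APCs at 47199 and 26502 CPM. In TCs at weeks 9 to 10 it stood at 84278, 43763 and 61809 CPM, and in heifers at 70586, 72365 and 49797 CPM. All 7 cow pools of weeks 5 to 6 lay below all 3 heifer pools, as for 7.69% of the 247 miRNAs tested. These 7 pools were put together after their values had been seen. The TC pools of weeks 9 to 10 spread across the heifer range, with 1 pool below it, 1 within it and 1 above it.

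As a share of the miRNA reads, bta-miR-16b ranged from 1.88% (95% Wilson interval 1.84 to 1.92) in APC replicate 2 to 9.68% (9.58 to 9.77) in TC replicate 1 of weeks 9 to 10, a 5.14-fold span. These intervals cover counting error only. It was the miRNA with most reads in 2 of the 3 TC pools of weeks 9 to 10, ranked 3 to 4 in heifers and 5 to 15 in the cow pools of weeks 5 to 6.

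bta-miR-16a was less abundant, and the ratio of its highest to its lowest pool was smaller than that of bta-miR-16b in every group except ANCs (1.27 against 1.26). TCs at weeks 5 to 6 had 4942, 5351 and 5240 CPM, ANCs had 6244 and 4901 CPM, and APCs had 6447 and 4422 CPM. TCs at weeks 9 to 10 had 7724, 7082 and 8170 CPM, and heifers had 7828, 9285 and 8978 CPM. The 7 cow pools of weeks 5 to 6 lay below the heifers without overlap, as for 7.69% of the 247 miRNAs tested. They also lay below the TCs of weeks 9 to 10 without overlap, as for 2.43%. Of the 10 cow pools only TC replicate 3 of weeks 9 to 10 reached the heifer range.

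bta-miR-15a and bta-miR-15b were rarer than both, and their groups overlapped throughout. bta-miR-15a was 1549, 1016 and 2585 CPM in TCs at weeks 5 to 6, 1715 and 2122 CPM in ANCs, 1709 and 2378 CPM in APCs, 856, 1901 and 1717 CPM in TCs at weeks 9 to 10, and 1275, 806 and 2725 CPM in heifers. bta-miR-15b was 1446, 1030 and 1981 CPM, 1684 and 2142 CPM, 1417 and 1820 CPM, 1440, 1718 and 2179 CPM, and 1433, 1081 and 2722 CPM in the same order. The heifers alone spanned 3.38-fold for bta-miR-15a, and replicate 3 was their highest pool for both miR-15 members and their lowest for bta-miR-16b.

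**Figure D1:**
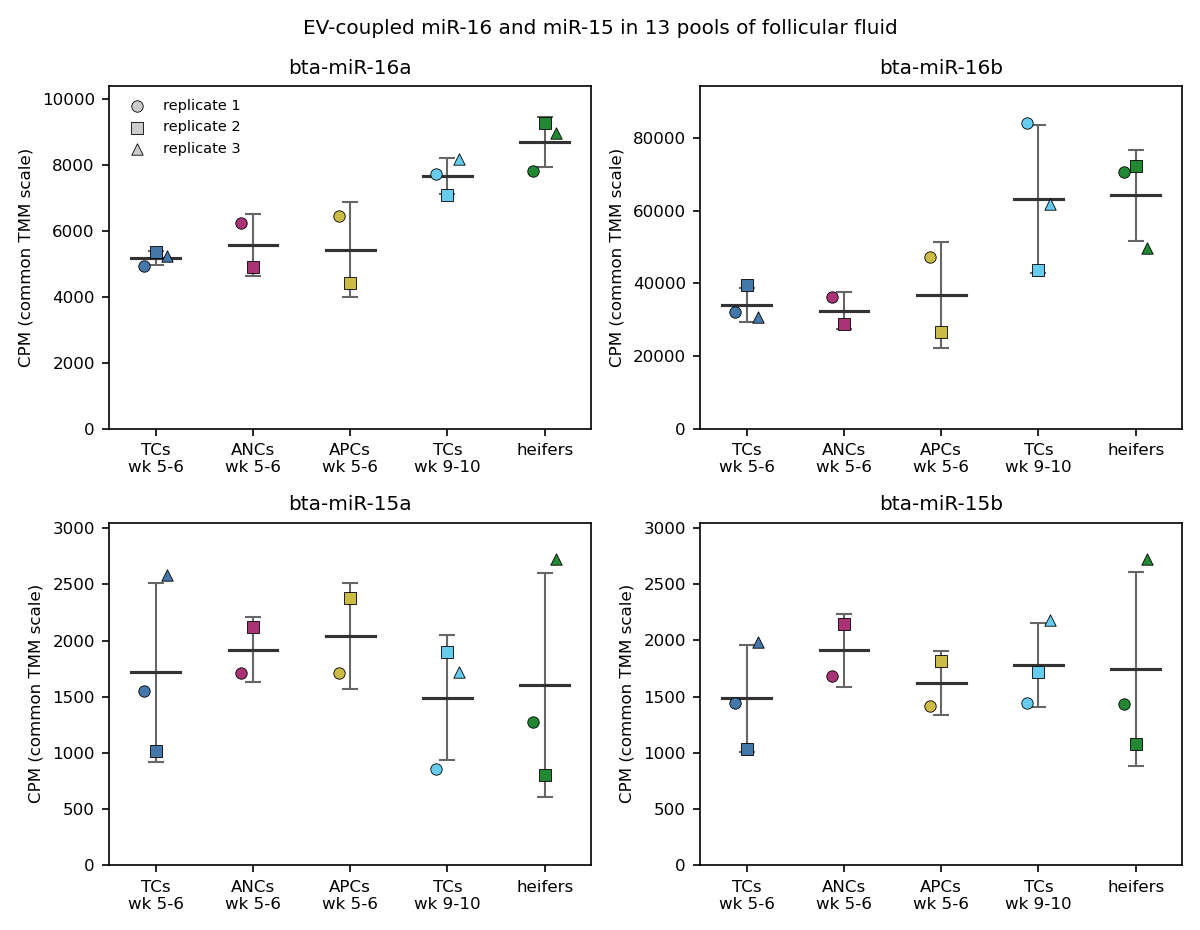
Level of each miRNA in CPM on the common TMM scale, 1 point per pool with the marker shape giving its replicate number, the horizontal bar as the group mean and the error bar as 1 SD (2 or 3 pools per group). For bta-miR-16a and bta-miR-16b the 7 pools of weeks 5 to 6 sit below the 3 heifer pools, as for 7.69% of the 247 miRNAs tested. For bta-miR-15a and bta-miR-15b all groups overlap.

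The order of the group means was TCs at weeks 5 to 6 (5177 ± 211 CPM, SD, n = 3), APCs (5434 ± 1432, n = 2), ANCs (5572 ± 949, n = 2), TCs at weeks 9 to 10 (7659 ± 547, n = 3) and heifers (8697 ± 768, n = 3) for bta-miR-16a. The only neighbours in this order whose pools did not overlap were ANCs and TCs at weeks 9 to 10. For bta-miR-16b the order was ANCs (32493 ± 5200), TCs at weeks 5 to 6 (34016 ± 4730), APCs (36850 ± 14636), TCs at weeks 9 to 10 (63283 ± 20297) and heifers (64249 ± 12548), and every pair of neighbours overlapped. The means of bta-miR-15a lay between 1491 CPM (TCs at weeks 9 to 10) and 2043 CPM (APCs), those of bta-miR-15b lay between 1486 CPM (TCs at weeks 5 to 6) and 1913 CPM (ANCs), and all neighbours overlapped.

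Each cow group was compared with the heifers, which asks how EV cargo differs between lactating cows of a given energy status and animals that have not lactated. These comparisons share the same 3 heifer pools. limma was fitted to log2(CPM + 5) of all miRNAs that passed the filter. To be called, a miRNA had to differ by 1 or more on the log2 scale, with p below 0.05 and, after Benjamini-Hochberg adjustment, no higher than 0.25. These are the limits the study set.

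In TCs at weeks 5 to 6, both miR-16 members were lower than in heifers by less than the fold threshold. The log2 fold change from limma was -0.91 ± 0.29 (SE; 95% interval -1.59 to -0.23; Benjamini-Hochberg adjusted p = 0.222) for bta-miR-16b and -0.75 ± 0.21 (-1.25 to -0.25; adjusted p = 0.222) for bta-miR-16a. Both met the p-value thresholds, as did 9.13% of the 230 miRNAs tested in the lower direction, and 0 of the 4 members was called against 6.96% of all miRNAs. With every TC pool below every heifer pool, both were among the 13% of miRNAs that separated in this way. Same-numbered pools of these 2 groups deviated together, and with the replicate number as a block the adjusted p from limma was 0.0462 for both, with 29 miRNAs called in place of 16 and no member among them. That pairing was read from these same data and not from a stated design, so the block adds no separate support. With RNA measurement day as a covariate instead, 0 miRNAs were called. Over all alternatives the limma, edgeR or DESeq2 adjusted p ranged from 0.0462 to 0.537 for bta-miR-16a and to 0.573 for bta-miR-16b. Without heifer replicate 3 bta-miR-16b passed all thresholds at -1.09, and how many of all miRNAs were called in that setting is not given here. The miRNAs called in this comparison ranged from 0 to 46 when 1 pool at a time was left out.

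In ANCs, bta-miR-16b was lower than in heifers with a log2 fold change of -0.88 ± 0.30 (-1.58 to -0.19) and a Benjamini-Hochberg adjusted p from limma of 0.138. It met the p-value thresholds with 14% of the 215 miRNAs tested, in the lower direction, and missed the fold threshold. bta-miR-16a differed by -0.56 ± 0.32 (-1.29 to 0.17; limma adjusted p = 0.289). None of the 4 members was called, against 18.6% of all miRNAs, and both miR-16 members were among the 26.7% with every ANC pool below every heifer pool. Over the alternatives the adjusted p of bta-miR-16b from limma, edgeR or DESeq2 ranged from 0.0348 to 0.459. Without heifer replicate 3, bta-miR-16b (log2 fold change -1.03) and bta-miR-15a (1.03, higher in ANCs) passed all thresholds. In that setting 54 miRNAs were called in place of 40.

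In APCs, the log2 fold change against heifers was -0.69 ± 0.39 (-1.61 to 0.23; limma adjusted p = 0.442) for bta-miR-16b and -0.55 ± 0.36 (-1.39 to 0.30; limma adjusted p = 0.470) for bta-miR-16a. The 2 APC pools lay far apart, and 0 of the 4 members was called against 12.4% of all miRNAs. Both miR-16 members were among the 21.1% of miRNAs whose APC pools lay below all heifer pools. With library totals in place of TMM, bta-miR-16b (-1.28) and bta-miR-16a (-1.13) passed all thresholds. But this scaling called 63 of all miRNAs in place of 29 and moved their median to -0.54. Without APC replicate 1 bta-miR-16b stood at -1.15, and without APC replicate 2 it stood at -0.23.

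In TCs at weeks 9 to 10, the log2 fold changes against heifers were close to 0: -0.01 ± 0.33 (-0.77 to 0.76) for bta-miR-16b and -0.13 ± 0.25 (-0.71 to 0.44) for bta-miR-16a, with limma adjusted p-values of 0.991 and 0.889. The intervals leave room for a difference of up to 0.77 on the log2 scale. limma called 0% of the 227 miRNAs in this comparison, with 24 (10.6%) at an unadjusted p-value under 0.05. edgeR's quasi-likelihood test called 0 and DESeq2 called 14.

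**Figure D2:**
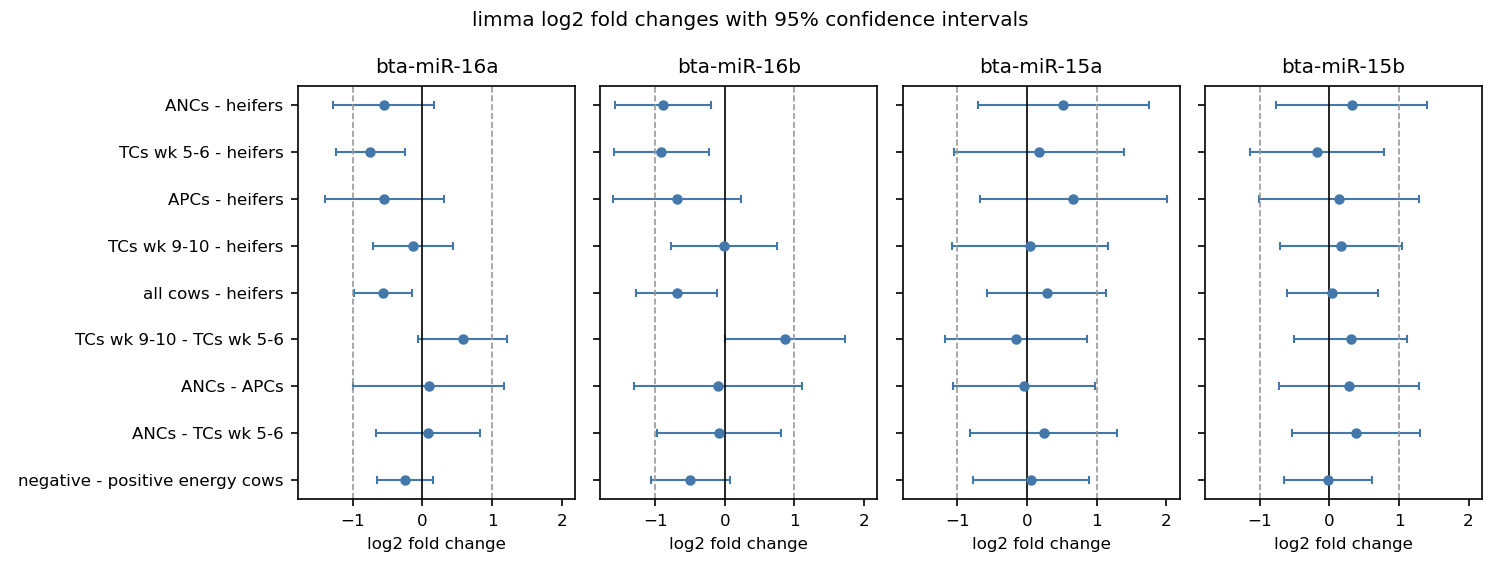
log2 fold change of each miRNA from limma (points) with its 95% confidence interval (bars) in the 9 comparisons, first group minus second. Dashed lines mark a log2 fold change of -1 and 1, and every point lies between them, with bta-miR-16a and bta-miR-16b left of 0 in the comparisons of weeks 5 to 6 with heifers and right of 0 between the TC times.

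When all cows were set against all heifers in 1 fit of the 13 libraries, with equal weight for the 4 cow groups, bta-miR-16a was lower by -0.57 ± 0.19 (-0.98 to -0.16; limma adjusted p = 0.139) and bta-miR-16b by -0.69 ± 0.26 (-1.27 to -0.12; limma adjusted p = 0.175) on the log2 scale. Both met the p-value thresholds in the lower direction, as did 11.3% of the 247 miRNAs, and 0 of the 4 members was called against 8.1% of all miRNAs. For bta-miR-16a 9 of the 10 cow pools lay below the lowest heifer pool, which held for 6.88% of all miRNAs, and for bta-miR-16b 8 of 10 did, where 12.1% of miRNAs had at least 8. Over the alternatives the adjusted p from limma, edgeR or DESeq2 ranged from 0.0843 to 0.616 for both, the highest without heifer replicate 2. An exact two-sided permutation test over the pools gave p = 0.0140 for bta-miR-16a and p = 0.0839 for bta-miR-16b. The smallest value that 10 pools against 3 allow is 0.00699. This test weighted the cow pools equally and not the 4 groups, and its p-values are not adjusted over the miRNAs.

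RNA concentration had been measured on 2 days, 1 for replicate 1 of every group and 1 for the other pools with a listed day. APC replicate 2, the lowest of all pools for both miR-16 members, had no listed day. That pool was left out wherever the day was used, also where the day was a covariate. Among the pools of the first day, cows minus heifers was -0.61 for bta-miR-16b and -0.32 for bta-miR-16a on the log2 scale (4 pools against 1). Among those of the other day it was -0.61 and -0.60 (5 pools against 2). Both kept their sign within each day.

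The 2 times of the TCs were compared to follow the change from negative to positive status. Status and weeks after calving changed together here and cannot be told apart, and the pools were treated as unpaired. From weeks 5 to 6 to weeks 9 to 10 the log2 difference was 0.87 ± 0.38 (0.01 to 1.73; limma adjusted p = 0.573) for bta-miR-16b and 0.58 ± 0.28 (-0.06 to 1.22; limma adjusted p = 0.573) for bta-miR-16a. Neither passed the adjusted threshold. limma called 0% of the 224 miRNAs, with 12 (5.36%) at an unadjusted p-value under 0.05, edgeR's quasi-likelihood test called 0 and DESeq2 called 8. All 3 early pools lay below all 3 late pools for both, as for 8.1% of miRNAs, and the exact permutation p of 0.100 is the smallest that 3 pools against 3 allow. In rank of the log2 difference, 94.6% of the miRNAs tested lay below bta-miR-16b and 87.5% below bta-miR-16a.

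ANCs and APCs, sampled at the same weeks in opposite energy status, differed in bta-miR-16b by -0.10 ± 0.47 (-1.299 to 1.109; limma adjusted p = 0.964) and in bta-miR-16a by 0.09 ± 0.42 (-0.997 to 1.172; limma adjusted p = 0.964). With 2 pools in each group these intervals reach past a 2-fold difference in either direction for bta-miR-16b. limma called 0% of the 207 miRNAs with 17 (8.21%) at an unadjusted p-value under 0.05, edgeR's quasi-likelihood test called 0 and DESeq2 called 6. ANCs differed from TCs of the same weeks by -0.08 ± 0.38 (-0.98 to 0.81) for bta-miR-16b and 0.08 ± 0.32 (-0.67 to 0.83) for bta-miR-16a, both with a limma adjusted p of 0.961. There limma, edgeR's quasi-likelihood test and DESeq2 each called 0% of the 225 miRNAs, with 18 (8%) at an unadjusted p-value under 0.05 by limma.

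Across all cows, negative minus positive energy status gave -0.49 ± 0.26 (-1.05 to 0.07; limma adjusted p = 0.872) for bta-miR-16b and -0.26 ± 0.19 (-0.66 to 0.15; limma adjusted p = 0.896) for bta-miR-16a, and 0 of the 4 members was called against 0.405% of the 247 miRNAs, with 4.05% at an unadjusted p-value under 0.05. The exact permutation p over 5 pools against 5, weighted equally and not adjusted over the miRNAs, was 0.0873 and 0.0952. Within the first RNA measurement day the difference was -0.89 and -0.34 (2 pools against 2), and within the other day -0.67 and -0.56 (3 pools against 2). APC replicate 2 had no listed day, so the positive pools of the other day were all TCs of weeks 9 to 10. Within that day status and week cannot be told apart at all. The positive cows joined APCs of weeks 5 to 6 with TCs of weeks 9 to 10, so status and week cannot be told apart in this contrast except through the APCs.

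The 7 pools of weeks 5 to 6 were put together after their values had been seen, so no test is given. All 7 lay below the 3 heifer pools for both miR-16 members, which held for 7.69% of the 247 miRNAs. For bta-miR-16a they also lay below the 3 TC pools of weeks 9 to 10, which held for 2.43%, whereas for bta-miR-16b APC replicate 1 (47199 CPM) exceeded TC replicate 2 of weeks 9 to 10 (43763 CPM).

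For bta-miR-15a and bta-miR-15b no comparison passed. Their log2 fold changes against heifers ran from 0.05 in TCs at weeks 9 to 10 to 0.67 in APCs for bta-miR-15a and from -0.18 in TCs at weeks 5 to 6 to 0.32 in ANCs for bta-miR-15b, with limma adjusted p-values of 0.520 and above after Benjamini-Hochberg adjustment. The widest interval, for bta-miR-15a in APCs, was -0.68 to 2.01, so differences beyond 2-fold could not be resolved with these pools. Without heifer replicate 3, bta-miR-15a was higher in APCs than in heifers by 1.17 and passed all thresholds. The share of all miRNAs called in that setting is not given here.

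Ratios between 2 miRNAs of a library do not depend on its scaling. Each pool held more bta-miR-16b than bta-miR-16a, between 5.55 times (heifer replicate 3) and 10.9 times (TC replicate 1 of weeks 9 to 10) as many reads. The mean ratio was 5.84 ± 0.06 in ANCs (SD, n = 2), 6.56 ± 0.76 in TCs at weeks 5 to 6 (n = 3), 6.66 ± 0.94 in APCs (n = 2), 8.22 ± 2.43 in TCs at weeks 9 to 10 (n = 3) and 7.45 ± 1.76 in heifers (n = 3). Every cow group overlapped the heifers, and ANCs overlapped TCs of weeks 5 to 6. The ANC pools lay below all APC pools, narrowly (5.88 against 5.99), and below all TC pools of weeks 9 to 10. How often ratios of other miRNAs separate in this way was not counted. bta-miR-16a and bta-miR-16b are near-identical, and where a read fits both, how it was assigned is not given in the sources used here, so this ratio may depend on that assignment.

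The ratio of both miR-16 members to both miR-15 members ran from 7.37 in APC replicate 2 to 43.3 in heifer replicate 2. It was 12.3, 21.9 and 7.85 in TCs at weeks 5 to 6, 12.5 and 7.91 in ANCs, 17.2 and 7.37 in APCs, 40.1, 14.1 and 18.0 in TCs at weeks 9 to 10, and 29.0, 43.3 and 10.8 in heifers. Heifers had the highest mean ratio, and their replicate 3 lay among the cow pools. On the log2 scale cows were 0.78 below heifers, with an exact two-sided permutation p of 0.189. Of the 4 ratios tested in 2 contrasts, 8 tests in all, the Benjamini-Hochberg adjusted p from the exact permutation test was 0.406 or higher, so no ratio passed. In the ratio of both miR-16 to both miR-15 members, too, every cow group overlapped the heifers. ANCs overlapped the other cow groups of weeks 5 to 6 and lay below all TC pools of weeks 9 to 10 (12.5 against 14.1 at the nearest). How often other ratios separate in this way was not counted.

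**Figure D3:**
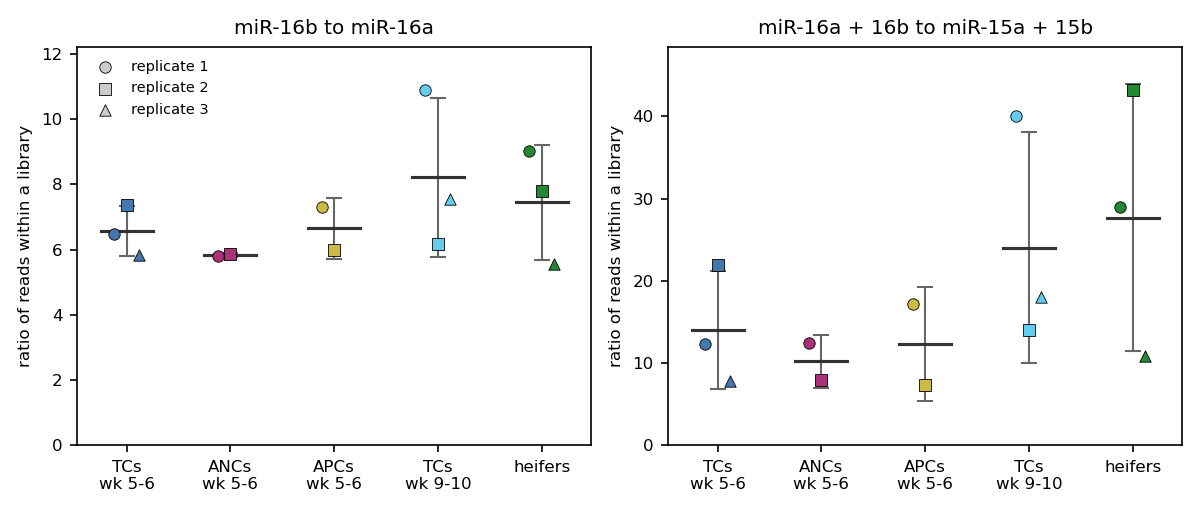
Ratio of reads within each library, for bta-miR-16b to bta-miR-16a (left) and for both miR-16 members to both miR-15 members (right), with 1 point per pool, the bar as the group mean and the error bar as 1 SD (2 or 3 pools per group). TC replicate 1 of weeks 9 to 10 has the highest ratio on the left, at 10.9, and every cow group overlaps the heifers in both panels.

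Over the 13 pools bta-miR-16b followed bta-miR-16a, from the other precursor, with a Pearson r of 0.88 (permutation p = 0.00013, adjusted p = 0.00065 over 5 correlations) and a Spearman rho of 0.91 (permutation p = 4e-05). Without the 2 pools farthest from the median of bta-miR-16a r was 0.83, and within the 10 cow pools it was 0.90. Where a read fits both of these near-identical miRNAs, its assignment is not given, so this r may depend on it too. The genomic neighbour of bta-miR-16b, bta-miR-15b, gave r = -0.28 (permutation p = 0.350, adjusted p = 0.365, rho = -0.34 with p = 0.263) and -0.53 without the 2 farthest pools. bta-miR-15a gave r = -0.66 (permutation p = 0.0145, adjusted p = 0.0362) and rho = -0.59 (p = 0.0376, adjusted p = 0.0941). That relation rested on heifer replicate 2 and TC replicate 1 of weeks 9 to 10, without which r was -0.37. Within the 10 cow pools, which hold the second of these but not the first, it was -0.69 (rho = -0.65), and with library totals in place of TMM it was -0.39. Within the 7 pools of the other RNA measurement day r was 0.92 with bta-miR-16a, -0.53 with bta-miR-15a, -0.24 with bta-miR-15b, 0.48 with bta-miR-451 and 0.07 with bta-miR-486, and the first day, with 5 pools, was too small for a value. The pools of a group and the common scaling are shared by all points, and groups that differ in level add to r.

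**Figure D4:**
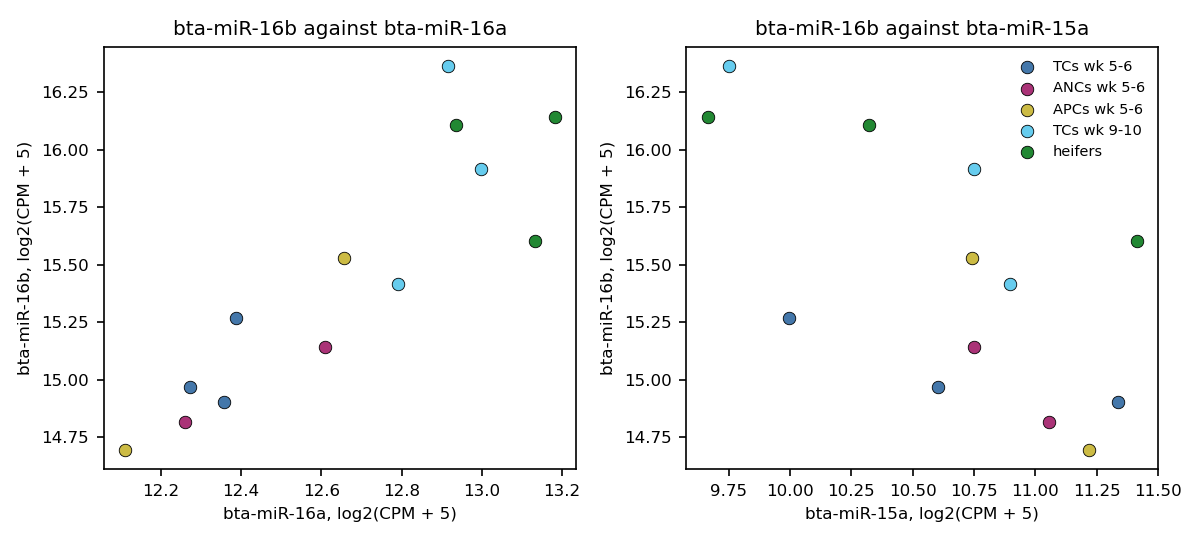
log2(CPM + 5) of bta-miR-16b against bta-miR-16a (left) and against bta-miR-15a (right) in the 13 pools, 1 point per pool, with the colour giving the group. The points rise from APC replicate 2 to the heifers and the TCs of weeks 9 to 10 on the left (r = 0.88) and scatter around a falling trend on the right (r = -0.66).

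Among the other 246 miRNAs that passed the filter, those most like bta-miR-16b over the 13 pools were bta-miR-532 (r = 0.93), bta-miR-151-3p (0.91), bta-miR-425-3p (0.90), bta-let-7g (0.90) and bta-miR-186 (0.89). For bta-miR-16a they were bta-miR-151-3p (0.91), bta-miR-186 (0.89), bta-miR-16b (0.88), bta-miR-425-5p (0.81) and bta-miR-425-3p (0.80). The lists of both miR-16 members thus had bta-miR-151-3p, bta-miR-186 and bta-miR-425-3p in common. bta-miR-15a was most like bta-miR-32 (0.93), bta-miR-450a (0.93), bta-miR-873 (0.86), bta-miR-361 (0.86) and bta-miR-92b (0.84). bta-miR-15b was most like bta-miR-32 (0.86), its relative bta-miR-15a (0.84), bta-miR-876 (0.76), bta-miR-1343-3p (0.74) and bta-miR-450a (0.73). These correlations describe the pools and carry no test.

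Since miR-16 often serves as a reference, its spread was set beside that of all 247 miRNAs that passed the filter and of 7 other miRNAs used for that purpose. The SD of log2(CPM + 5) over the 13 pools was 0.36 for bta-miR-16a, with 10.1% of miRNAs steadier, 0.55 for bta-miR-16b (38.1% steadier), 0.57 for bta-miR-15a (42.9%) and 0.40 for bta-miR-15b (15.8%). Within groups the SD of bta-miR-16a was 0.18, lower than for all but 1.21% of miRNAs, whereas bta-miR-16b had 0.37 and bta-miR-15a had 0.65. bta-miR-16a was thus among the steadiest miRNAs inside a group although its mean in TCs at weeks 5 to 6 was 0.595 times that in heifers. Of the other references, bta-let-7a-5p had an SD of 0.31 and bta-miR-25 of 0.33 over the 13 pools, and bta-miR-103 had 1.15. Between them lay bta-miR-26a (0.57), bta-miR-93 (0.60), bta-miR-423-5p (0.65) and bta-miR-191 (0.70). These SDs are on the TMM scale, which itself assumes that most miRNAs do not differ.

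**Figure D5:**
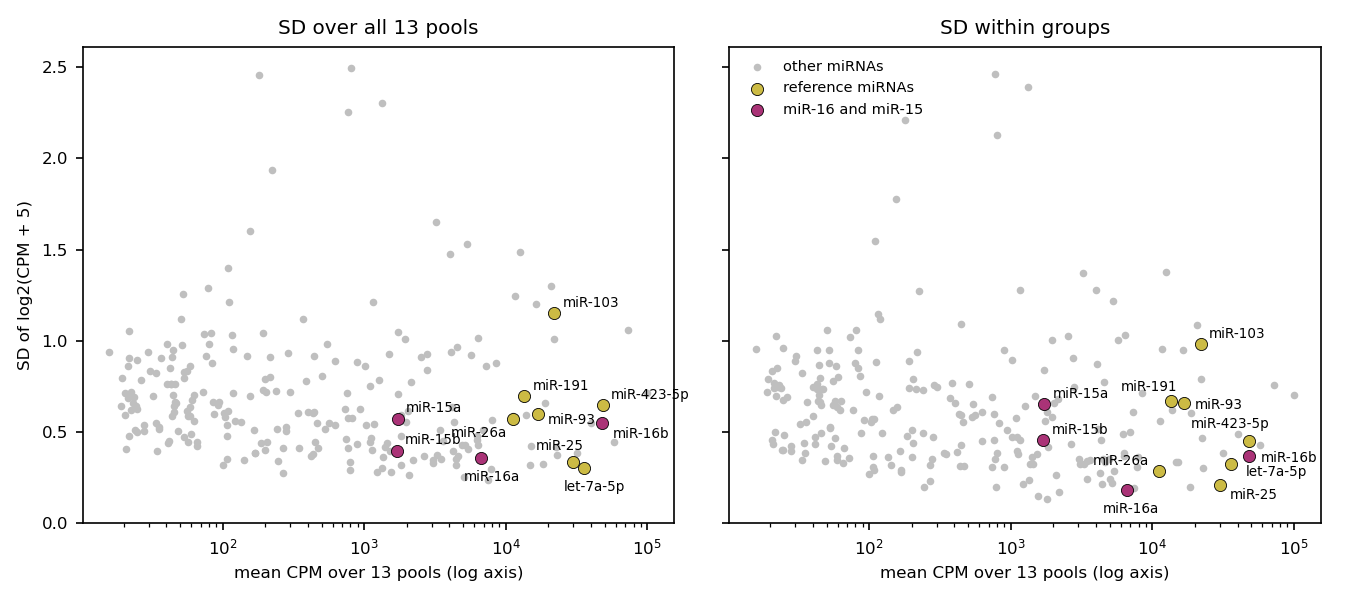
SD of log2(CPM + 5) against the mean CPM (log axis) of the 247 miRNAs over all 13 pools (left) and within groups (right), with 1 point per miRNA, the miR-16 and miR-15 members and 7 reference miRNAs marked. bta-miR-16a lies near the lower edge in both panels, at 0.36 and 0.18, and bta-miR-103 lies high, at 1.15 over all pools.

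Other miRNAs known to carry the miR-16 seed were listed for all groups at lower levels. bta-miR-195 ranged from 1890 to 4286 CPM over the 13 pools, bta-miR-497 from 579 to 1846 CPM and bta-miR-424-5p from 484 to 2898 CPM. In contrast to miR-16, all 3 had positive log2 fold changes in ANCs against heifers, and 1 of the 3 was called, against 18.6% of all miRNAs. bta-miR-424-5p, made from a cluster with miR-503 and known from granulosa cells, rose in ANCs with a log2 fold change of 1.66 ± 0.38 (limma with Benjamini-Hochberg adjustment, adjusted p = 0.0749). bta-miR-195 differed by 0.30 ± 0.36 and bta-miR-497 by 0.88 ± 0.42 in that comparison, and neither was called. In each of the other 8 comparisons 0 of the 3 was called, where the share of all miRNAs called ran from 0% to 12.4%.

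Markers of blood cells varied between the pools as well, and their part in the levels of miR-16 was not tested. The leukocyte list (miR-223, miR-142-5p, miR-142-3p, miR-150, miR-155 and miR-146a) summed to 745 to 1580 CPM in ANCs and 2144 to 3971 CPM in APCs. The sum was 2762 to 3063 CPM in TCs at weeks 5 to 6 and 1573 to 4820 CPM in TCs at weeks 9 to 10. In heifers it was 4868 to 6077 CPM. All cow pools lay below all heifer pools, but the nearest 2 were close (4820 against 4868 CPM). How often sums of other miRNAs separate in this way was not counted. limma called 5 of its 5 tested members lower in ANCs than in heifers, where 18.6% of all miRNAs were called, and 3 of 5 lower in TCs at weeks 5 to 6, where 6.96% were. In the contrast of all cows with heifers 5 of 6 were lower and called, against 8.1% of all miRNAs, among them bta-miR-223, the myeloid miRNA, by -1.95 ± 0.42 (limma with Benjamini-Hochberg adjustment, adjusted p = 0.0763). The median log2 fold change of the list in TCs at weeks 9 to 10 against heifers was -1.44, with 0 of 5 called.

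The red blood cell list was measured because miR-16 is abundant in these cells. miR-451 and miR-486 were listed for all groups, and miR-144 was listed for 1 group only. limma called 2 of 2 tested lower in ANCs than in heifers, where 18.6% of all miRNAs were called. Their summed level was 131 to 1145 CPM in ANCs, 751 to 5583 in TCs at weeks 5 to 6, 2137 to 8934 in APCs, 2425 to 10962 in TCs at weeks 9 to 10 and 1717 to 3958 in heifers. bta-miR-451, the erythroid miRNA, fell in negative against positive cows by 3.31 on the log2 scale (SE 0.71; limma with Benjamini-Hochberg adjustment, adjusted p = 0.132), and it was read 0 times in ANC replicate 1. bta-miR-16b correlated with bta-miR-451 at r = 0.41 (permutation p = 0.167, adjusted p = 0.278; rho = 0.43, p = 0.141) and with bta-miR-486 at r = 0.28 (permutation p = 0.365, adjusted p = 0.365; rho = 0.27, p = 0.375).

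Epithelial miRNAs (miR-200a, miR-200b, miR-200c, miR-141, miR-429, miR-205 and miR-184) summed to 5150 to 32526 CPM in cows and 16385 to 26019 in heifers, with 4 of 7 called lower in ANCs than in heifers, against 18.6% of all miRNAs called there. Of the granulosa and follicle list 5 of 7 were listed for all groups (4262 to 11463 CPM in cows, 4634 to 14196 in heifers), and in ANCs against heifers 2 were called higher and 1 lower. The liver miRNA miR-122 stood at 329 to 5858 CPM in cows and 5369 to 17623 CPM in heifers. limma with Benjamini-Hochberg adjustment called it lower in ANCs than in heifers by -3.31 ± 0.89 (adjusted p = 0.0971) and in all cows by -2.16 ± 0.68 (adjusted p = 0.139) on the log2 scale. Of the 7 reference miRNAs, 2 were called higher and 1 lower in ANCs than in heifers, and 3 were called higher in APCs, where 12.4% of all miRNAs were called. The part of these lists in the levels of miR-16 was not tested.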

How the data were processed

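Libraries made by the authors with a QIAseq miRNA kit were trimmed with Cutadapt 1.11, aligned with Bowtie2 2.2.2 to UMD3.1 and annotated from miRBase release 20. The deposited values are TMM-normalized CPM, not logged. In 7 libraries the deposited values add up to more than CPM can, so their unit is recorded as signal. The reads behind the values were recovered from the smallest steps in each library (3681 of 3681 values whole within 0.02 CPM), and levels were recomputed from them.

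Groups followed the labels. The members and lists were chosen with earlier results of these data known. Named miRNAs are the members, their seed relatives, the listed markers and references, and the 5 most similar to each member. The plan was to use the quasi-likelihood test of edgeR for counts. Because the deposited unit is CPM, the fits used limma 3.58.1 with its trend option on log2(CPM + 5), with TMM (edgeR 4.0.16) over the miRNAs listed for both groups and filterByExpr (minimum count 10, minimum total 15). The contrasts over all cows came from 1 fit of 13 libraries. edgeR and DESeq2 1.42.0 on recovered reads, library totals, pseudocounts, filters, blocks, measurement day and left-out pools were alternatives. Fits were tested on simulated data. Exact permutation tests (SciPy 1.17.1) were two-sided and cannot go under 0.333 with 2 pools against 2 or 0.2 with 2 against 3.

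Deviations from the group means correlated between same-numbered pools of TCs at weeks 5 to 6 and heifers (0.22, 0.38 and 0.39 over 230 miRNAs), so the block is given there. This pairing is read from the data and not from a stated design. Names of neighbouring genes come from a RefSeq table of another assembly, and mature sequences were not used here.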

Additional observations from a re-analysis of the deposited data

Results flagged for a closer look

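TC replicate 1 of weeks 9 to 10 stood apart from the other cow pools in its ratio of bta-miR-16b to bta-miR-16a, at 10.9 against 5.79 to 7.57 in the other 9. On the log2 scale the gap to the next pool was 0.578 of the range over the 10 cow pools. Of 24 sets of pools examined for an end value past Dixon's limit this was the only one, and chance gives about 1 in 20. The same pool had the highest share of bta-miR-16b of all 13, with 34655 reads, and the lowest bta-miR-15a of its group, at 856 CPM. Without it bta-miR-16b and bta-miR-15a correlated at -0.56 (permutation p = 0.0605).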

How the results depend on the processing

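Of 865 repeats of 58 results, 744 kept their direction and their side of the threshold, 59 reversed, 10 passed the thresholds where the reported value did not, 2 no longer passed and 50 moved. The cause of these changes was not tested. No fold change of the 4 members and no ratio passed as reported. For these, keeping the side of the threshold meant only that a result that had not passed still did not pass. Among the fold changes, ratios and correlations, only the correlations of bta-miR-16b with bta-miR-16a and with bta-miR-15a passed as reported. Only these had a pass to lose, so the small count that no longer passed is no sign of robustness. No alternative gave bta-miR-16a or bta-miR-16b a higher level in ANCs, in APCs or in TCs at weeks 5 to 6 than in heifers.

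When library totals replaced TMM, APCs against heifers had a median log2 fold change over all miRNAs of -0.54. There 63 miRNAs were called, bta-miR-16a stood at -1.13, bta-miR-16b at -1.28 and bta-miR-15b at -0.44. In TCs at weeks 5 to 6 against heifers 26 were called (median -0.24), with bta-miR-16b at -1.12 and bta-miR-15a at -0.035, and in TCs at weeks 9 to 10 against heifers 6 were called. ANCs against APCs gave 0.31 for bta-miR-16b and 0.36 for bta-miR-15a, ANCs against TCs of the same weeks 0.16 for bta-miR-16b, the TC times 0.075 for bta-miR-15a, all cows against heifers -0.11 for bta-miR-15b, and energy status 0.070 for bta-miR-15b. The correlation of bta-miR-16b was -0.39 with bta-miR-15a and 0.19 with bta-miR-15b.

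DESeq2 called 36 miRNAs in TCs at weeks 5 to 6 and 14 in TCs at weeks 9 to 10 against heifers, 6 between ANCs and APCs and 8 between the TC times. It gave -0.013 for bta-miR-15b in APCs, 0.00035 for bta-miR-16b and -0.087 for bta-miR-15a in TCs at weeks 9 to 10, and -0.014 for bta-miR-16a between ANCs and APCs. edgeR's quasi-likelihood test gave 0.030 for bta-miR-16b and -0.052 for bta-miR-15a in TCs at weeks 9 to 10, -0.046 for bta-miR-15b in all cows, and 0 calls for energy status. The fit of all 13 libraries gave -0.0089 for bta-miR-15b in APCs, and 4 calls and -0.0017 for bta-miR-15a in TCs at weeks 9 to 10. With RNA measurement day as a covariate 0 miRNAs were called in TCs at weeks 5 to 6 against heifers, 13 in all cows against heifers and 2 for energy status, where bta-miR-15a stood at -0.014. With the reads of bta-miR-16a and bta-miR-16b summed, an alternative chosen after seeing the data, bta-miR-15a stood at -0.0058 for energy status, and the sum was -0.65 in all cows against heifers (limma adjusted p = 0.203).

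The replicate block called 65 miRNAs in ANCs against heifers, where it leaves out heifer replicate 3, with bta-miR-16b at -1.03 and bta-miR-15a at 1.03. It called 29 in TCs at weeks 5 to 6 against heifers, 7 in TCs at weeks 9 to 10 against heifers, 28 between ANCs and APCs, 2 between ANCs and TCs of the same weeks and 0 for energy status. Apart from TCs at weeks 5 to 6 and heifers, the pools of these groups share only a number.

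Leaving out 1 pool at a time, calls against heifers ranged from 0 (without ANC replicate 1) to 54 (without heifer replicate 3) in ANCs, 3 (without heifer replicate 1) to 48 (without APC replicate 1) in APCs, 0 to 46 (without TC replicate 2) in TCs at weeks 5 to 6, 0 to 25 (without TC replicate 2) in TCs at weeks 9 to 10 and 0 (without heifer replicate 2) to 35 (without heifer replicate 3) in all cows. Between cow groups calls ranged from 0 to 36 for ANCs and APCs, 0 to 7 for ANCs and TCs, 0 to 22 for the TC times and 0 to 4 for energy status. bta-miR-16b ranged from -1.03 to -0.75 in ANCs, -1.15 to -0.23 in APCs, -1.09 to -0.78 in TCs at weeks 5 to 6 and -0.25 to 0.26 in TCs at weeks 9 to 10 against heifers, from -0.55 to 0.36 between ANCs and APCs and from -0.19 to 0.14 between ANCs and TCs. bta-miR-16a ranged from -0.23 to 0.40 between ANCs and APCs and from -0.0011 to 0.22 between ANCs and TCs. bta-miR-15a ranged from 0.088 to 1.03 in ANCs, 0.27 to 1.17 in APCs, -0.22 to 0.64 in TCs at weeks 5 to 6, -0.33 to 0.52 in TCs at weeks 9 to 10 and -0.10 to 0.75 in all cows against heifers, from -0.24 to 0.15 between ANCs and APCs, -0.47 to 0.25 between the TC times and -0.13 to 0.16 for energy status. bta-miR-15b ranged from -0.0023 to 0.72 in ANCs, -0.14 to 0.55 in APCs, -0.45 to 0.20 in TCs at weeks 5 to 6, -0.10 to 0.54 in TCs at weeks 9 to 10 and -0.22 to 0.41 in all cows against heifers, and from -0.14 to 0.049 for energy status. The correlation of bta-miR-16b with bta-miR-15a ranged from -0.76 to -0.56, and the log2 ratio of bta-miR-16b to bta-miR-16a in cows minus heifers from -0.30 to 0.049. A group left with 1 pool is assumed to vary like the other. Each group had 2 or 3 pools, and how far read depth adds to the spread between them was not tested.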
